A study of Homo sapiens with 3 samples.

Results

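The genes described are the 10 members of the MYC, MAX and MXD network of transcription factors, out of 57773 Ensembl gene IDs counted by RNA sequencing in NB4 cells. They were taken by symbol: MYC, MYCN, MYCL, MAX, MXD1, MXI1, MXD3, MXD4, MNT and MGA. All 10 symbols had a row in the count table. Of these, 9 passed the filter on low counts and were tested, and MYCN had 0 counts in every library. NB4 cells derive from human acute promyelocytic leukaemia and bear the fusion gene PML-RARA. The libraries were 2 of cells with short hairpin RNAs (shRNAs) against ARID1B, 1 with hairpin 2 and 1 with hairpin 3, and 1 of cells with a control shRNA that targets no gene. ARID1B encodes a subunit of the BAF chromatin remodelling complex. The medium in every case was RPMI 1640 with serum, and polyadenylated RNA was sequenced. No other agent is named in the labels, nor whether infections or cultures were separate, so the spread between them may be technical.

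MYC proteins bind DNA as dimers with MAX at a short palindrome called the E-box and drive genes of growth, ribosome assembly and division. The MXD proteins, MXI1 and MNT also pair with MAX, occupy the same sites and bring in the SIN3 and histone deacetylase corepressor, while MGA carries MAX into a polycomb complex. In blood cells MYC is known to be high in dividing progenitors and to give way to MXD proteins, MXD1 among them, as granulocytes mature.

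The E-box was searched as the letters CACGTG, which read the same on both strands, in RefSeq promoters of 300 bases (250 before and 50 after the start, GRCh38.p14). These letters were in 7.26% of all 35116 promoters and in at least 1 promoter of 8.77% of the 27305 genes in that table. Both shares include genes that were not tested here. Of the tested genes with a promoter in the table, 1362 held the letters and 9653 did not, a larger share. Of the members, 9 had promoters there, all but MYC, and 2 of the 9 held the letters, MXD4 and MNT. Among known MYC targets with promoters in the table they were in 12 of 24 ribosome biogenesis genes and 12 of 22 metabolic genes. They were also in 6 of 13 cell cycle genes, and in 1 of 9 genes known to be repressed by MYC. The stretches below, with each E-box in capitals, are shown because they are the E-boxes of the network's own antagonists (MXD4 and MNT), of a MYC target with 3 of them (CDK4) and of a MYC target whose RNA fell (UTP20). They lie at chr4:2262318-2262359 on the minus strand (MXD4), chr17:2401224-2401277 on the minus strand (MNT), chr12:57752382-57752550 on the minus strand (CDK4) and chr12:101280071-101280104 on the plus strand (UTP20).
MXD4: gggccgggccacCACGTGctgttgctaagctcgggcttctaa
MNT: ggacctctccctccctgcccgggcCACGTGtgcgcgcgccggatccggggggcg
CDK4: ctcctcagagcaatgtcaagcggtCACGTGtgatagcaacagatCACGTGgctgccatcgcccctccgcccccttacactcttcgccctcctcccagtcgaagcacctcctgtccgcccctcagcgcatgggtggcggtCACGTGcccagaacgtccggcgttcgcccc
UTP20: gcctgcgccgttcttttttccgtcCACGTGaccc
The E-box began 238 bases before the start in MXD4, 193 in MNT, 216 in CDK4 for the first of its 3, and 10 in UTP20. TERT, another MYC target whose RNA fell, held the letters 163 bases before its start, and its stretch is not shown. A match is a run of letters and was not tested as a binding site.

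The libraries held 59997475 to 62954803 counts. ARID1B, the targeted gene, was reduced to 43.3% of control with hairpin 2 (exact 95% interval of the counts 41.2 to 45.5) and to 42.2% with hairpin 3 (40.2 to 44.4), and fell by 1.23 ± 0.13 (SE) on the log2 scale (edgeR quasi-likelihood test, adjusted p = 1.4e-05). All 8 promyelocyte markers were tested, and PRTN3, proteinase 3, rose (2.11 ± 0.151, edgeR adjusted p = 7.5e-07) while CTSG, cathepsin G, fell (-1.81 ± 0.141, edgeR adjusted p = 1.2e-06). ELANE, neutrophil elastase, had 4, 1 and 10 counts under hairpin 2, hairpin 3 and in the control. Of the 8 promyelocyte markers, 5 had a log2 fold change above 0 and 3 below. MPO, the most abundant of them, had 836096 and 741714 counts under hairpins 2 and 3, against 682719 in the control. Its log2 fold change was 0.23 ± 0.295 (edgeR adjusted p = 0.733). Of 8 lymphoid markers 5 were tested and 2 rose. They were CD3D (1.17 ± 0.197, edgeR adjusted p = 0.00107) and NKG7 (0.63 ± 0.185, edgeR adjusted p = 0.0442). Called were 40% of the tested lymphoid markers and 25% of the promyelocyte markers, against 8.7% of all tested genes. The NKG7 call was lost with upper quartile factors (edgeR adjusted p = 0.0503), DESeq2 (0.0853), a mean CPM of 1 or more (0.141), robust empirical Bayes (0.215) and no filter (0.513), and its fold change was 0.33 without hairpin 2 and 0.90 without hairpin 3. The summed lymphoid level was 61.6 and 46.7 CPM (counts scaled to library size with TMM factors) under hairpins 2 and 3, against 33.8 CPM in the control, and the defining markers CD3E, CD2 and MS4A1 had at most 6 counts in any library. For the promyelocyte markers the sum was 14551 and 12525 CPM under hairpins 2 and 3, against 11477 CPM in the control, most of it MPO. Of 6 epithelial, fibroblast and packaging cell markers 4 were tested and COL6A1 fell (-1.70 ± 0.35, edgeR adjusted p = 0.00511). That call was lost with DESeq2 (adjusted p = 0.098) and in edgeR without a filter (0.47). Summed levels of the 6 were 19.7 and 24.4 CPM under hairpins 2 and 3, against 25.9 CPM in the control. The epithelial marker EPCAM made up most of each sum, with 1075 and 1370 counts under hairpins 2 and 3, against 1367 in the control. Its log2 fold change was -0.14 ± 0.158 (edgeR adjusted p = 0.681). KRT8 had 44 and 65 counts under hairpins 2 and 3, against 66 in the control, and KRT19 had 0 in each library. The part of these markers in the results that follow was not tested.

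With ARID1B silenced, MYC RNA stood lower under both hairpins, as did MXI1, MNT and MGA among its antagonists, while MAX and MXD3 stood higher by small amounts. None of these differences passed the threshold. Of 9 members tested, 0 were called at an adjusted p under 0.05 (edgeR quasi-likelihood test, Benjamini-Hochberg over all 20382 tested genes), where 8.7% of all tested genes were called (5.49% higher and 3.21% lower). At an unadjusted p under 0.05 there were 3, MYC, MYCL and MXI1, where 20.7% of all tested genes lay below that value. With DESeq2 1 member was called, MYC, where 5.16% of the 20382 genes given to it were. DESeq2 gave MYCL no adjusted p, so this share is over genes with and without one. The median log2 fold change of the 9 was -0.26, against -0.01 over all tested genes. The test had 1 residual degree of freedom, from the difference between the hairpins, and 14.8 prior degrees of freedom borrowed from other genes, and the lone control was assumed to vary like the hairpin libraries.

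MYC is the family member that drives growth in most blood cells, and it was by far the most abundant of the network here, at rank 71 of all gene IDs by mean CPM. It had 56470 counts (939 CPM) under hairpin 2 and 70336 counts (1128 CPM) under hairpin 3, against 93523 counts (1506 CPM) in the control. Both hairpin libraries were below the control, and hairpin 2 was the lower of them. MYC was at 62.3% of the control under hairpin 2 (exact 95% counting interval 61.7 to 63.0), while hairpin 3 left 74.9% (74.2 to 75.6), intervals that cover counting error only. The hairpin libraries themselves differed, with 1.20 times as much under hairpin 3 as under hairpin 2 (exact 95% counting interval 1.19 to 1.21), although ARID1B stood at nearly the same level in both. The log2 fold change was -0.54 ± 0.175 (SE, edgeR quasi-likelihood test, adjusted p = 0.0681). In these bulk libraries a lower level in every cell and fewer cells with a high level cannot be told apart.

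The MYC call depended on the processing. It passed with DESeq2 (adjusted p = 0.0254), and in edgeR with library size alone (adjusted p = 0.0265; 10.1% of all tested genes called), with the legacy quasi-likelihood fit (0.0399; 10.1% called) and with upper quartile factors (0.0488; 9.03% called). In the last 3 of these fits 2 members were called, MYC and MXI1. MYC did not pass in the other edgeR fits, with RLE factors (adjusted p = 0.0544; 9.13% called), robust empirical Bayes (0.0656; 7.23% called), a mean CPM of 1 or more (0.131; 6.41% called) or no filter on low counts (0.47; 0% called). In these 0 members were called. The fold change itself was between -0.59 and -0.53 in the 9 fits. With hairpin 3 alone it was -0.42 and with hairpin 2 alone -0.67, values without a test.

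Of all 20382 tested genes 2129 (10.4%) had a log2 fold change at or below that of MYC. At 10 CPM or more on average, 262 of 9963 had a lower one. Among the 88 tested genes that averaged 1000 CPM or more, none had a lower log2 fold change than MYC. Of the 2103 at 100 CPM or more, 17 did. The standard error of MYC lay near the median of 0.186 for genes at 1000 CPM or more, against 0.135 for those at 100 CPM or more. Of genes in these abundance groups, 5.68% and 11.6% were called. The abundance limits were chosen after the values were seen.

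**Figure D1:**
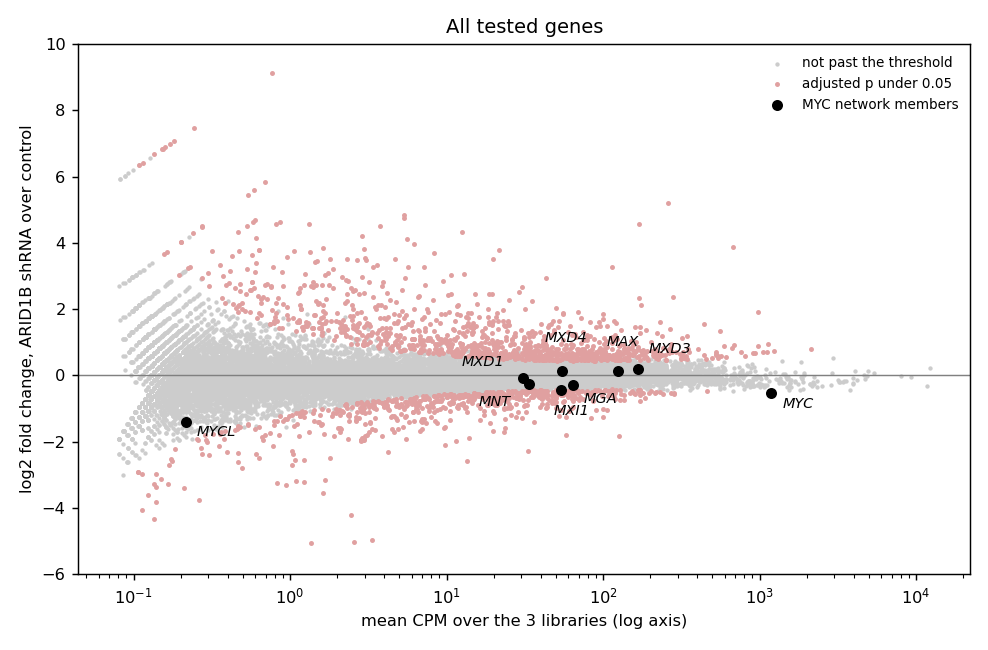
Log2 fold change (ARID1B shRNA over control shRNA, vertical axis) against mean CPM over the 3 libraries (horizontal, log axis) for the 20382 tested genes, 1 point a gene. Black points are the 9 tested network members, none past the threshold; MYC lies at the lower edge of the abundant genes at -0.54, and MYCL at the left with few counts.

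The other MYC genes were nearly silent. MYCL, first known from lung cancer, had 8 counts under hairpin 2 and 9 under hairpin 3, against 23 in the control, which is 0.133, 0.144 and 0.37 CPM. Its level was 35.9% of the control under hairpin 2 (exact 95% counting interval 13.9 to 83.2), with 39.0% for hairpin 3 (15.9 to 87.4). Its log2 fold change was -1.40 ± 0.591 (edgeR adjusted p = 0.18), and no fit that tested it gave an adjusted p under 0.05. MYCN, the neuroblastoma oncogene, had 0 counts throughout. At these depths its level could be up to 0.0499 CPM under hairpin 2, 0.0481 CPM under hairpin 3 and 0.0483 CPM in the control (3 counts).

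MAX, the shared partner of the other members, had 8048 counts (134 CPM) under hairpin 2 and 7585 (122 CPM) under hairpin 3. The control had 7223 (116 CPM). Both hairpin libraries were above the control, and hairpin 3 was close to it. Its log2 fold change was 0.14 ± 0.132 (edgeR adjusted p = 0.633).

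**Figure D2:**
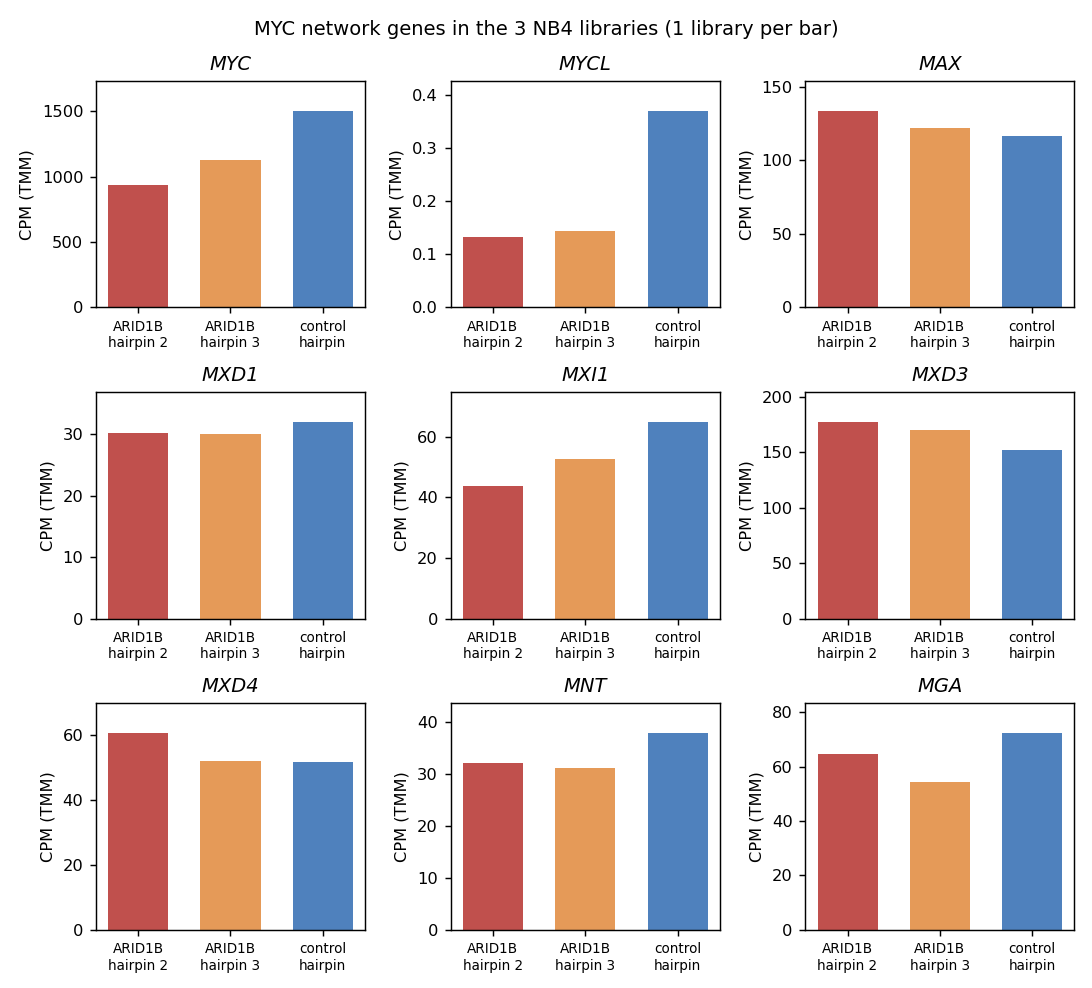
CPM of each of the 9 tested members in the library with ARID1B hairpin 2, the library with ARID1B hairpin 3 and the control library, 1 library a bar, each panel with its own vertical axis from 0. MYC, MXI1 and MYCL, the last with few counts, have hairpin 2 lowest and the control highest (939, 1128 and 1506 CPM for MYC). MAX and MXD3 are lowest in the control, as is MXD4 by a small margin.

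Of the MXD group, MXD1 and MXI1 stood below the control and MXD3 and MXD4 above it, none past the threshold. MXD1, the member best known for appearing as myeloid cells mature, had 1816 counts (30.2 CPM) under hairpin 2 and 1875 (30.1 CPM) under hairpin 3, against 1990 (32.05 CPM) in the control. It stood at 94.2% of the control under hairpin 2 (exact 95% counting interval 88.4 to 100.5), with 93.8% for hairpin 3 (88.1 to 100.01), so its levels were within or at the edge of counting error. In the test it had a log2 fold change of -0.09 ± 0.136 (edgeR adjusted p = 0.781).

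MXI1 was the antagonist with the lowest log2 fold change. It had 2629 counts (43.7 CPM) under hairpin 2 and 3279 (52.6 CPM) under hairpin 3, against 4030 (64.9 CPM) in the control. The order of the libraries was that of MYC, hairpin 2 lowest and the control highest. How many of all tested genes have this order was not counted. The ratio of hairpin 3 to hairpin 2 was 1.20 here too (exact 95% counting interval 1.14 to 1.27). MXI1 stood at 67.4% and 81.04% of the control under hairpins 2 and 3. Its log2 fold change was -0.43 ± 0.139 (edgeR adjusted p = 0.0695). It passed with library size alone (edgeR adjusted p = 0.0357), upper quartile factors (0.0373) and the legacy fit (0.0414), and not with DESeq2 (0.227) or in the remaining edgeR alternatives (0.0724 to 0.472).

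MXD3, known in the mouse from dividing cells in S phase, was the most abundant antagonist. It had 10687 counts (178 CPM) under hairpin 2 and 10598 (170 CPM) under hairpin 3, against 9473 (153 CPM) in the control. Both hairpin libraries were above the control, and the log2 fold change was 0.19 ± 0.131 (edgeR adjusted p = 0.469). In GENCODE 29, 22.5% of its exon length is shared with PRELID1 on the other strand and 18% with RAB24 on its own strand, so its counts are uncertain. PRELID1 and RAB24 had log2 fold changes of 0.17 ± 0.135 and 0.06 ± 0.134 (edgeR adjusted p = 0.547 and 0.859).

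MXD4, known in the mouse from differentiating cells, had 3653 counts (60.7 CPM) under hairpin 2 and 3246 (52.1 CPM) under hairpin 3, against 3221 (51.9 CPM) in the control. Hairpin 2 alone was above the control, since hairpin 3 stood at 100.4% of it (exact 95% counting interval 95.6 to 105.4). The test gave a log2 fold change of 0.12 ± 0.138 (edgeR adjusted p = 0.694). MXD4 and MNT, the members with an E-box in the promoter shown above, had log2 fold changes of opposite sign.

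MNT, an antagonist made in both resting and dividing cells, had 1929 counts (32.1 CPM) under hairpin 2 and 1943 (31.2 CPM) under hairpin 3, against 2349 (37.8 CPM) in the control. The hairpin libraries were alike, at 84.8% (exact 95% counting interval 79.8 to 90.1) and 82.4% (77.5 to 87.5) of the control. MNT had a log2 fold change of -0.26 ± 0.133 (edgeR adjusted p = 0.296). An antisense gene, AC006435.1, covers 12.2% of its exon length and had 563 and 580 counts under hairpins 2 and 3, against 685 in the control, and strand use in counting is not given in the sources used here.

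MGA, the large scaffold that brings MAX into the polycomb complex PRC1.6, had 3894 counts (64.7 CPM) under hairpin 2 and 3396 (54.5 CPM) under hairpin 3, against 4502 (72.5 CPM) in the control. Here hairpin 3 was the lower, the reverse of MYC and MXI1, with 0.841 times the level under hairpin 2 (exact 95% counting interval 0.803 to 0.881). For MGA the log2 fold change was -0.28 ± 0.137 (edgeR adjusted p = 0.26). Across the network 6 of the 9 members with counts differed between the hairpins beyond counting error, MYC, MAX, MXI1, MXD3, MXD4 and MGA. MYCL, MXD1 and MNT did not. The same was not counted over all genes, so the 6 cannot be read as a trait of the network. Counting intervals are narrow for abundant genes at this depth. Over all tested genes the median absolute log2 difference between the hairpin libraries was 0.168.

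**Figure D3:**
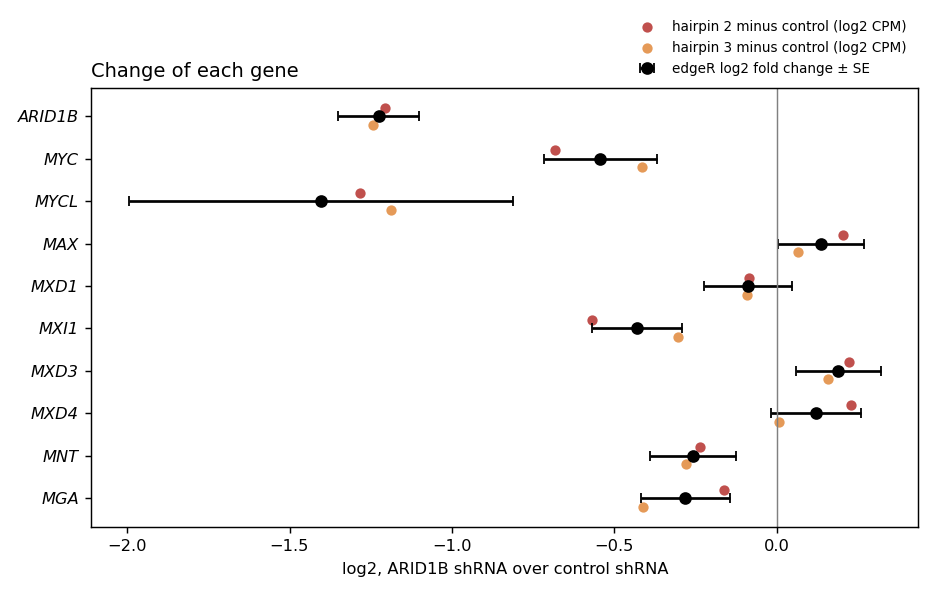
Log2 fold change (ARID1B shRNA over control shRNA) of ARID1B and the 9 tested members, with black points for the edgeR estimate and bars for its standard error, and coloured points for each hairpin library minus the control in log2 CPM. ARID1B lies at -1.23 with both hairpins close together, MYC at -0.54 with the hairpins apart, and the interval of 1 standard error crosses 0 for MXD1 and MXD4.

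Levels of different genes were compared per length, as CPM per kilobase of GENCODE 29 exon length. This length joins the exons of all annotated transcripts of a gene, not only those expressed here. Genes with many transcripts can therefore stand too low against others. MYC had 313 and 376 CPM per kilobase under hairpins 2 and 3, against 502 in the control. MXD3 (34.5, 33.0 and 29.6 in the same order of libraries) and MAX (30.2, 27.5 and 26.3) came next, and their ranges over the libraries overlapped. MXI1 followed with 9.49 to 14.1 CPM per kilobase, then MXD4 with 7.35 to 8.61 and MXD1 with 4.74 to 5.05. MNT (3.57 to 4.33) and MGA (3.09 to 4.11) overlapped at the low end, above MYCL. The summed level of the 6 antagonists was 64.7 and 63.2 CPM per kilobase under hairpins 2 and 3, against 64.5 in the control. MYC stood at 4.84 and 5.95 times that sum under hairpins 2 and 3, against 7.78 times in the control. It stood at 10.4 and 13.7 times MAX under hairpins 2 and 3, against 19.1 times in the control. MXD3 made up 53.3% and 52.2% of the antagonist sum under hairpins 2 and 3, against 45.9% in the control. MXD3 counts are uncertain because of the exons shared with PRELID1 and RAB24. The antagonist sum and the ratios that use it are uncertain for the same reason. These ratios carry no test, and the hairpin libraries share their control.

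The genes around the network were taken from lists of partners and targets, whose counts stand beside 8.7% called and a median of -0.01 over all tested genes. MLX resembles MAX and pairs with some MXD proteins and with factors that respond to glucose. Of its 5 genes 4 were tested and 0 were called (edgeR; median log2 fold change 0.04), and MLX itself had 0.18 ± 0.129 and MLXIP -0.09 ± 0.129. Of 12 MYC coactivators and partners 0 were called (edgeR; median -0.13). RUVBL2, an ATPase of chromatin complexes that MYC binds, had -0.24 ± 0.133 and HCFC1 0.07 ± 0.14. Of 11 subunits of the SIN3 and histone deacetylase corepressor 0 were called (edgeR; median 0.02), with RBBP4 at -0.04 ± 0.135 and RBBP7 at 0.07 ± 0.131. Of 9 partners of MGA in PRC1.6 0 were called (edgeR; median 0.05), with CBX3 at 0.07 ± 0.142 and TFDP1 at -0.03 ± 0.141.

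Of 11 genes that set the stability of MYC protein, 1 rose, PIM1, a kinase known to phosphorylate and stabilise MYC (9.09% called, against 8.7% over all tested genes; median of the list 0.02). PIM1 had 822 counts under hairpin 2 and 725 under hairpin 3, against 377 in the control, a log2 fold change of 1.06 ± 0.188 (edgeR adjusted p = 0.00172). Both hairpin libraries were well above the control, and the call was lost only without a filter on low counts (edgeR adjusted p = 0.47), where no gene at all passed. HUWE1, a ubiquitin ligase that acts on MYC, had -0.06 ± 0.145. FBXW7, the ligase best known for degrading MYC, had 0.20 ± 0.145 (edgeR adjusted p = 0.489; chosen after its values were seen).

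Of 16 regulators of MYC RNA 15 were tested and 1 fell, TCF7L2, a factor of the Wnt pathway that acts on MYC transcription (6.67% called; median of the list -0.06; LEF1 had 0 counts). TCF7L2 had 277 and 306 counts under hairpins 2 and 3, against 502 in the control, a log2 fold change of -0.76 ± 0.195 (edgeR adjusted p = 0.0213). The call was lost with DESeq2 (adjusted p = 0.155), with a mean CPM of 1 or more (edgeR adjusted p = 0.0505) and without a filter (0.47). HNRNPK, an RNA-binding protein, had 0.11 ± 0.15. PVT1, the long non-coding RNA next to MYC, had 2849 and 2793 counts under hairpins 2 and 3, against 2805 in the control, and a log2 fold change of 0.03 ± 0.132 (edgeR adjusted p = 0.938; chosen after its values were seen). Its level was thus alike in all 3 libraries, which that of MYC was not. The difference between these neighbours was not tested.

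Of 31 ribosome biogenesis genes 30 were tested and 1 fell, UTP20, a processome protein for the small ribosomal subunit, whose promoter E-box is shown above (3.33% called, against 8.7% over all tested genes; median of the list -0.06, range -0.47 to 0.21). The list median of the log2 CPM difference from the control was -0.14 under hairpin 2 and 0.0007 under hairpin 3. Over all tested genes it was -0.03 and -0.005. UTP20 had 2354 and 2274 counts under hairpins 2 and 3, against 3253 in the control (-0.47 ± 0.131, edgeR adjusted p = 0.0344). It was lost with DESeq2 (adjusted p = 0.133), with a mean CPM of 1 or more (edgeR adjusted p = 0.0622) and without a filter (0.47). NPM1, nucleophosmin, the most abundant of the list, had 107891 and 139346 counts under hairpins 2 and 3, against 155720 in the control (-0.32 ± 0.201, edgeR adjusted p = 0.415). NPM1 had the same order of libraries as MYC, hairpin 2 lowest and the control highest, while UTP20 was lowest under hairpin 3. Other genes of the list, FBL among them, had the order of NPM1 too. How many of all tested genes have it was not counted.

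Of 26 metabolic, transporter and chaperone genes 1 rose, TFRC, the transferrin receptor (3.85% called; median of the list 0.01). By hairpin, the list median of the log2 CPM difference from the control was -0.06 under hairpin 2 and 0.03 under hairpin 3. TFRC had 17335 and 16923 counts under hairpins 2 and 3, against 12524 in the control (0.47 ± 0.138, edgeR adjusted p = 0.0434). Its call did not hold with robust empirical Bayes (edgeR adjusted p = 0.0529), upper quartile factors (0.0674), a mean CPM of 1 or more (0.0749) and no filter (0.47). ENO1, the glycolytic enolase, had 0.02 ± 0.186.

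Of 16 cell cycle and immortality genes 1 fell, TERT, the catalytic subunit of telomerase and a known direct MYC target (6.25% called; median of the list 0.03). Per hairpin, the list median of the log2 CPM difference from the control was -0.08 under hairpin 2 and 0.15 under hairpin 3. TERT had 3706 counts under hairpin 2 and 5434 under hairpin 3, against 9329 in the control. Both hairpin libraries were below the control and hairpin 2 was the lower, the order seen for MYC. CTSG and COL6A1 of the marker lists had that order as well, and UTP20 did not. How many of all tested genes share it was not counted. The log2 fold change was -1.01 ± 0.162 (edgeR adjusted p = 6.9e-04), and the call was lost only without a filter (0.47). MCM7, a subunit of the replicative helicase, had 0.02 ± 0.162 (edgeR adjusted p = 0.973). CDK4, the G1 kinase whose promoter E-boxes are printed above, had 10281 and 12510 counts under hairpins 2 and 3, against 11171 in the control (0.05 ± 0.14, edgeR adjusted p = 0.901; named for its 3 E-boxes).

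Of 12 genes known to be repressed by MYC 11 were tested, 1 rose and 1 fell (18.2% called, against 8.7% over all tested genes), and the median was 0.40, against -0.01 over all tested genes. The riser was CEBPA, the granulocyte factor, with 12026 and 10821 counts under hairpins 2 and 3, against 6939 in the control (0.74 ± 0.141, edgeR adjusted p = 0.00301). That call was lost only without a filter (edgeR adjusted p = 0.47). CDKN1B, the cell cycle inhibitor p27, fell against the direction in the list's name, with 1676 and 1794 counts under hairpins 2 and 3, against 2431 in the control (-0.47 ± 0.134, edgeR adjusted p = 0.0392). It was lost with DESeq2 (adjusted p = 0.162), with a mean CPM of 1 or more (edgeR adjusted p = 0.067) and without a filter (0.47). CDKN1A, the inhibitor p21, had 108 and 96 counts under hairpins 2 and 3, against 50 in the control (1.05 ± 0.347, edgeR adjusted p = 0.0778; chosen after its values were seen). NDRG1 went the other way, from 2003 counts in the control to 1404 and 1490 under hairpins 2 and 3. Its log2 fold change was -0.45 ± 0.137 (edgeR adjusted p = 0.0531; chosen after its values were seen). In this list 7 tested genes had a log2 fold change above 0 and 4 below. Of the 7, GADD45G, THBS1, CDKN1C and CDKN1A had only 5, 7, 21 and 50 counts in the control. Of the 4, NDRG2 had 59. CDKN2B had 0 counts in each library.

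**Figure D4:**
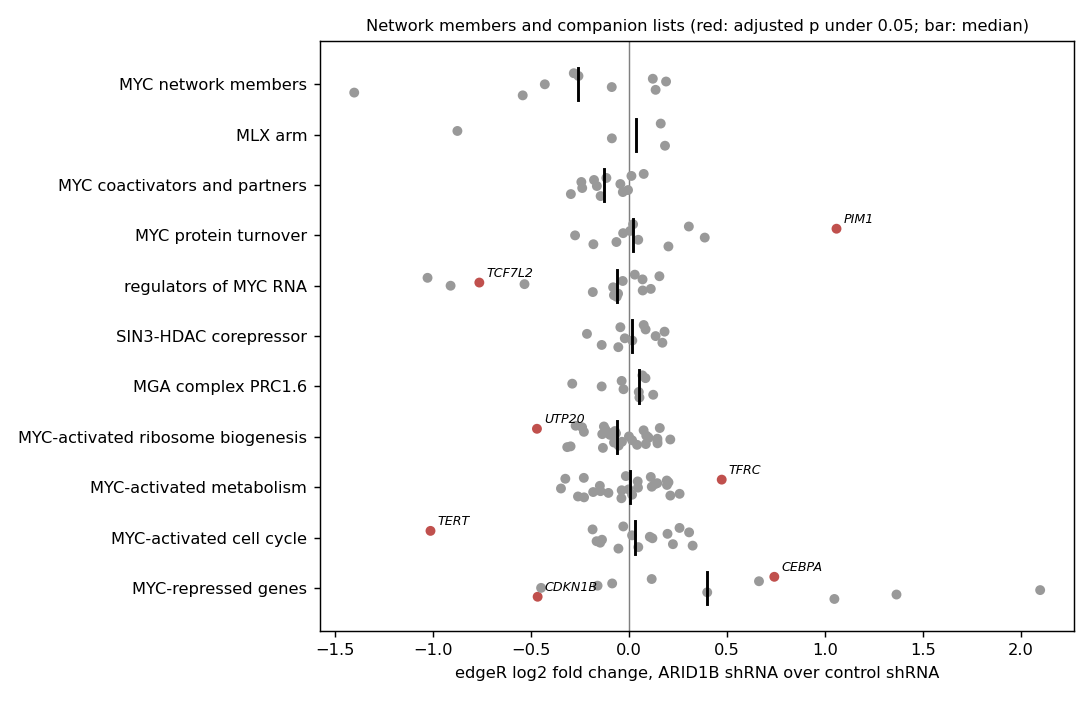
Log2 fold change (ARID1B shRNA over control shRNA, horizontal axis) of each tested gene of the network and of 10 lists of partners and targets, 1 point a gene, with red for an adjusted p under 0.05 and a black bar for the median of the list. The red points are PIM1, TFRC and CEBPA above 0 and TCF7L2, UTP20, TERT and CDKN1B below it, and the medians lie between -0.26 for the members and 0.40 for the MYC-repressed genes.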

How the data were processed

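The authors deposited whole-number read counts per Ensembl gene ID for the 3 libraries, not normalized. STAR, featureCounts, Cufflinks and hg19 are named per the submitters' processing notes, which give no role for each tool, no annotation and no strand setting. Names, exon lengths and overlaps came from GENCODE 29 (52338 IDs named), which describes another build, and promoters from RefSeq (GRCh38.p14). TXNIP and BOP1 matched no row.

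In R 4.3.3 with edgeR 4.0.16, filterByExpr (minimum count 10) left 20382 genes. TMM factors were 1.0024 for hairpin 2, 0.9903 for hairpin 3 and 1.0074 for the control. Hairpin and control libraries were compared by glmQLFit (legacy = FALSE) and glmQLFTest, two-sided, Benjamini-Hochberg adjusted, threshold 0.05. Standard errors are the log2 fold change over the square root of F. Per-hairpin log2 CPM used a prior count of 2. Alternatives were other factors, filters, fits and DESeq2 1.42.0. The code was tested on simulated data.

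Counting intervals are exact (95%), and without molecular identifiers cover counting error only. The members and lists were chosen with earlier results of these data known. Named genes are ARID1B, the members and up to 4 genes of each other list, called ones first, otherwise the most abundant. ELANE, CD3E, CD2, MS4A1, KRT19, LEF1, CDKN2B, FBXW7, PVT1, CDKN1A and CDK4 fall outside that rule. So do MPO, FBL, KRT8, NDRG1, NDRG2, GADD45G, THBS1 and CDKN1C. All of these, and the genes that overlap members, were named after their values were seen. Genes nearest in pattern were to be named for called members, of which there were none.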

Additional observations from a re-analysis of the deposited data

How the results depend on the processing

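Log2 fold changes of the 9 tested members kept their sign in every fit that tested them. The number of members called lower was 0 in the main edgeR fit (3 at an unadjusted p under 0.05), 2 with upper quartile factors (where 9.03% of all tested genes were called), 2 with library size alone (10.1%), 2 with the legacy fit (10.1%) and 1 with DESeq2 (5.16% of the genes given to it). Those called were MYC and MXI1, or MYC alone in DESeq2. The number was 0 with RLE factors, robust empirical Bayes, a mean CPM of at least 1 and no filter, and no member was called higher in any fit. The cause of these differences was not tested. Over all genes 1119 were higher and 655 lower, 277 lower with DESeq2, 622 higher and 338 lower with a mean CPM of at least 1, where fewer genes were tested, and 0 in both directions without a filter (edgeR, 3218 at an unadjusted p under 0.05). The share of calls that were higher was 63.1%, 73.7% with DESeq2 and 53.8% with upper quartile factors. No paired analysis was possible because the control group has 1 library and shares no replicate number with the hairpin libraries. Leaving out a hairpin library leaves no residual degree of freedom, so it gave fold changes and no counts of calls. With a smaller prior count than 2, the log2 CPM difference of MYCL, which has few counts, was -1.46 in place of -1.28 under hairpin 2 and -1.35 in place of -1.19 under hairpin 3.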

Other observations

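Beyond the network, genes with the letters CACGTG in a RefSeq promoter were set beside those without, as a description with no test. Of 1362 tested genes with the letters, 86 were higher and 54 lower with ARID1B silenced (10.3% called, edgeR adjusted p under 0.05), and their median log2 fold change was 0.0097. Of 9653 tested genes without the letters, 10.6% were called, and their median was 0.0011. Both shares are over genes with a promoter in the table.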
